A study of Mus musculus with 4 samples.

Results

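Nrp2, Sema3f, Robo2 and Slit1 are 4 of the 22399 genes counted in these libraries. They were chosen by name as 2 ligand and receptor pairs of axon guidance, with earlier results of these data known. Their levels were followed in sums of single cells of the main olfactory epithelium of the mouse, first by the stage of the olfactory sensory neurons, then by cell class, by the odorant receptor a neuron expressed, and by sex. Levels are given in CPM, the molecules of a gene among 1000000 molecules in the summed cells of 1 library.

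Each olfactory sensory neuron (OSN) expresses 1 odorant receptor, and the axons of neurons with the same receptor meet in the same glomeruli of the olfactory bulb. Nrp2 encodes neuropilin-2, a receptor that works with plexins and binds the repellent Sema3f, a secreted class 3 semaphorin. Robo2 encodes a roundabout receptor, which binds Slit proteins, and Slit1 encodes one of these secreted repellents. In the mouse, Nrp2 is known from neurons of the ventral epithelium and Robo2 from neurons of the dorsal epithelium, and both pairs take part in sorting axons along the dorsal to ventral axis of the bulb. Nqo1 encodes a quinone reductase of dorsal neurons and served as the dorsal reference. Gap43, a growth cone protein, marks immature neurons, and Omp, the olfactory marker protein, marks mature ones.

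The 4 libraries (female 1, female 2, male 1 and male 2) came from C57BL/6J wild type mice aged 3 months, with no treatment or modified allele named. The epithelium was dissociated with papain, and transcripts were read from their 5′ ends. The labels do not say whether libraries of 1 sex came from separate animals, so p-values measure the spread between these 4 samples. The deposited counts held between 10256 and 10777 barcodes and between 100725429 and 111577458 molecules per library, and 136 to 172 barcodes were shared by each pair of libraries. After filtering, 8819 to 9291 cells per library remained. The Gap43 gate took the 2314 barcodes with Gap43 at 5 or more and Omp below 10 per 10000 molecules, the Omp gate the 20080 barcodes with the reverse, and the double gate the 1090 barcodes that met both limits. Of the Gap43 gate, 74.4% were immature OSN-like, 13.5% immediate neuronal precursor-like and 9.46% sustentacular-like, and of the Omp gate 81.2% were mature OSN-like and 4.03% sustentacular-like. In sums of cells, fewer cells of a type and less RNA per cell cannot be told apart.

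In GRCm38, Nrp2 (ENSMUSG00000025969) lies on chromosome 1 from 62703285 to 62818695 on the plus strand. Robo2 (ENSMUSG00000052516) lies on chromosome 16 from 73891839 to 74411825, Sema3f (ENSMUSG00000034684) on chromosome 9 from 107681500 to 107710475 and Slit1 (ENSMUSG00000025020) on chromosome 19 from 41600257 to 41743665, all on the minus strand. The reference Nqo1 (ENSMUSG00000003849) lies on chromosome 8 from 107388225 to 107403206, on the minus strand. The bases before the gene start of the members with opposite patterns across receptors, Nrp2 and Robo2, are shown with those of Nqo1, since reads from 5′ ends begin near this start. They are from RefSeq, GRCm38.p6, 5′ to 3′ on the strand of the gene, and capitals mark GGGCGG, the core of a GC box, on either strand.
Nrp2, chr1:62703067-62703284: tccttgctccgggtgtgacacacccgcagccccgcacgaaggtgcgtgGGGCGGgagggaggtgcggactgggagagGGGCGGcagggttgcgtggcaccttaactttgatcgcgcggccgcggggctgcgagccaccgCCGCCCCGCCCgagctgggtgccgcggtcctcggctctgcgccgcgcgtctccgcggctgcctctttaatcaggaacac
Robo2, chr16:74411826-74412075: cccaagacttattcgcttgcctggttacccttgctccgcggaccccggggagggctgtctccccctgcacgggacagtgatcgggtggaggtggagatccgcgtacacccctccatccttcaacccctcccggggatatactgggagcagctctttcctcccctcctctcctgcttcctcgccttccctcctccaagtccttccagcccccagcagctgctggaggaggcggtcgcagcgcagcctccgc
Nqo1, chr8:107403207-107403455: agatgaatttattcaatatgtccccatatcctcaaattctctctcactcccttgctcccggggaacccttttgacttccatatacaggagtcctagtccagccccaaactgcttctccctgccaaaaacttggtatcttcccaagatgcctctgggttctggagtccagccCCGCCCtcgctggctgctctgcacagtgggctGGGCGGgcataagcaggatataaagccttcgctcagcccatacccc
The Nrp2 stretch of 218 bases had 4 matches to GGGCGG, counting overlaps, and a GC content of 72.5%, at percentile 94 of all promoter windows. In Robo2 there was no match in 250 bases, the window nearest to the annotated gene start, and the GC content was 65.6%. Nqo1 had 2 matches and 1 TATAAA in 249 bases, at a GC content of 53.4%. Of 32851 promoter windows of 250 bases, 32.7% held GGGCGG and 12.4% TATAAA. Neither TAATTA, a homeodomain core that 4.84% of the windows held, nor TCCCNNGGGA, a motif of Ebf factors that 0.779% held, was found on either strand of the 3 stretches. A match describes these letters and is not a binding site.

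The first comparison asked how the members change as neurons mature. Nrp2 and its ligand Sema3f fell from the Gap43 gate to the Omp gate, and Slit1 rose. Its receptor Robo2 had a smaller fall, whose size varied with the settings. The gates were not matched for the receptors that their neurons expressed, and levels by receptor are given below. Nrp2 in the Gap43 gate stood at 288 and 321 CPM in the first and second female library and at 265 and 243 CPM in the first and second male library. In the Omp gate it stood at 142, 141, 123 and 113 CPM in the same order of libraries. The lowest Gap43 gate library was well above the highest of the Omp gate, and the double gate lay between them at 204 ± 14.8 CPM (SD, n = 4). Nrp2 fell by 0.89 on the log2 scale (SE 0.04, edgeR adjusted p = 6.4e-08), a 1.85-fold difference. All 4 members passed the test here, against 72.4% of the 12860 genes tested, so that passing sets none of them apart. The 6 marker genes of immediate neuronal precursors, all detected in each gate, summed to between 2000 and 2190 CPM over the libraries of the Gap43 gate and to between 405 and 430 CPM in the Omp gate. With the barcodes of named OSN clusters only, the log2 difference of Nrp2 was -0.71 (adjusted p = 6.9e-09).

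Sema3f was counted at 34.7, 35.8, 37.3 and 39.8 CPM in the Gap43 gate and at 14.6, 14.7, 15.03 and 17.2 CPM in the Omp gate, in the same library order. The gates did not overlap. It fell by 1.04 on the log2 scale (SE 0.08, edgeR adjusted p = 1.4e-06), 2.06-fold, with the double gate between at 22.7 ± 1.7 CPM (SD, n = 4). The 7 genes of the sustentacular marker list, which are genes of the supporting cells, were all detected in each gate. Their summed level was 4548 to 6567 CPM over the libraries of the Gap43 gate and 3097 to 5195 CPM in the Omp gate. Without the clusters of other cells the log2 difference of Sema3f was -1.19 (adjusted p = 7.2e-07).

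Slit1, the ligand of the other pair, had 34.0, 32.9, 30.2 and 33.2 CPM in the Gap43 gate and 40.8, 37.9, 39.6 and 41.8 CPM in the Omp gate. Every Omp gate library was higher than every Gap43 gate library. It rose by 0.52 on the log2 scale (SE 0.05, edgeR adjusted p = 5.0e-06), 1.43-fold, and was highest in the double gate, at 46.4 ± 1.0 CPM (SD, n = 4). With the barcodes of named OSN clusters only, the rise was 0.37 (edgeR adjusted p = 2.2e-04), and other settings put it between 0.30 and 0.64. In neurons that carried both markers Slit1 was 0.66 higher on the log2 scale than in the Gap43 gate (SE 0.05, edgeR adjusted p = 5.3e-06), a comparison that 55.9% of all genes passed. From the double gate to the Omp gate, where 52.7% of all genes passed, the log2 difference was -0.14 (SE 0.05, adjusted p = 0.0455), and this call was lost with gates set in molecules per barcode, where it was 0.01, and without any 1 of the 4 libraries (adjusted p from 0.0698 to 0.323).

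Robo2, the Slit receptor, had 120, 110, 125 and 123 CPM in the Gap43 gate and 93.5, 86.4, 98.9 and 92.0 CPM in the Omp gate. These ranges did not overlap either, but the log2 difference was small at -0.15 (SE 0.05, edgeR adjusted p = 0.0203). Under other settings it was between -0.37 and -0.09, and it was -0.24 without barcodes under 4000 molecules (edgeR adjusted p = 0.00247). The call was lost without a filter on low counts (adjusted p = 0.0539), without female 2 (0.0516) and without male 2 (0.0934). The double gate stood at 121 ± 6.9 CPM (SD, n = 4), level with the Gap43 gate in CPM, and the fitted log2 difference between these gates was 0.17 (adjusted p = 0.0235) but -0.02 with gates set in molecules per barcode, and the call was lost without female 1, female 2 or male 2 (adjusted p = 0.0866, 0.124 and 0.232). The scaling factors moved all genes between the Omp and Gap43 gates by 0.22 on the log2 scale, so that small differences depend on them. Between the double gate and the Omp gate Robo2 fell by 0.31 on the log2 scale (SE 0.05, edgeR adjusted p = 7.1e-04), but this call was lost with gates set in molecules per barcode (adjusted p = 0.0919).

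**Figure D1:**
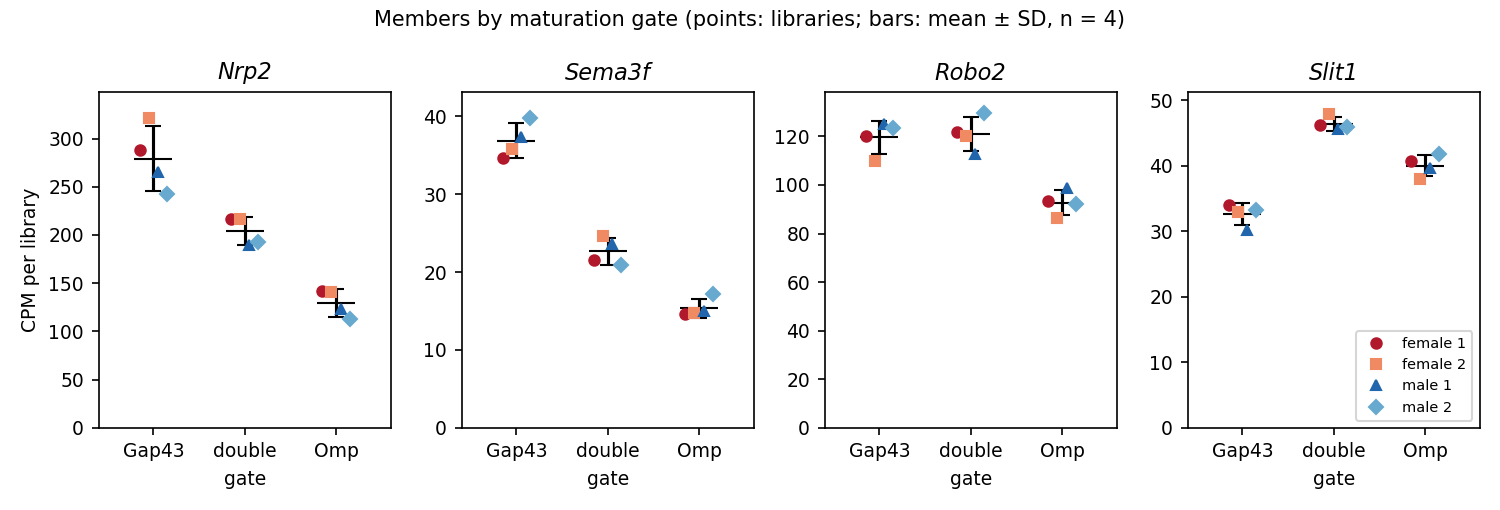
Level of each member in the 3 gates (x axis) in CPM (y axis, from 0), with 1 point per library and a bar at the mean of the 4 libraries with its SD. Nrp2 and Sema3f step down from the Gap43 gate to the Omp gate, Slit1 is highest in the double gate at 46.4 CPM, and Robo2 is lowest in the Omp gate at 92.7 CPM.

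The partners of the members moved in both directions. Of the 16 other genes of the semaphorin and plexin list, 12 were tested between the Omp and Gap43 gates and 11 passed, 5 higher and 6 lower in the Omp gate, with a median log2 difference of -0.64 against -0.02 over all genes, of which 72.4% passed. Sema3e, a class 3 semaphorin that signals through Plxnd1, was 2.75 higher on the log2 scale (SE 0.10). Plxna3, a plexin that transduces Sema3f signals bound by Nrp2, rose by 2.30 (SE 0.05) while Nrp2 fell, and Plxnb3 rose by 2.74. Sema3a, the ligand of Nrp1, fell by 2.18, and Plxnc1 fell by 2.68. Of the 22 other genes of the Slit and Robo list, 14 of 19 tested passed, close to the share over all genes, 4 higher and 10 lower, with a median of -0.54. Robo3, the Robo family member known from commissural axons, fell by 5.66 on the log2 scale, the netrin receptor Dcc by 4.55 and Slit2 by 1.17. Of the 20 genes of growth cone collapse signalling, all 17 tested passed, 2 higher and 15 lower, with a median of -0.85. Its collapsin response mediators Dpysl3 (-5.31), Dpysl5 (-2.74) and Dpysl4 (-2.07) were lower, as were the adhesion molecule Nrcam (-4.08) and the kinase Fyn (-2.55). Crmp1, Dpysl3 and Dpysl5 of this list are also among the immature OSN markers used to name clusters.

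Across the cell classes of the epithelium, which include supporting cells, basal stem cells and cells of the connective tissue, each member had its own order of levels. The clusters were formed without the members and named from marker genes. Nrp2 was highest in immediate neuronal precursor-like cells, the dividing or just divided cells before the immature neuron, at 696, 694, 578 and 637 CPM (female 1, female 2, male 1, male 2). No library of another class reached these values. Fibroblast-like cells followed at 347 ± 114 CPM with 1 library, male 1, at 483 CPM, then cluster 13, which stayed unnamed, at 243 ± 29.2 CPM and immature OSN-like cells at 225 ± 26.2 CPM (SD, n = 4). These last 3 overlapped over the libraries. Mature OSN-like cells at 134 ± 11.98 CPM and macrophage-like cells at 74.5 ± 23.1 CPM stood apart from their neighbours in the order, and sustentacular-like cells had 28.9 ± 2.3 CPM (SD, n = 4).

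Robo2 had the same leading class, immediate neuronal precursor-like cells, at 215, 181, 188 and 198 CPM. It then stepped down without overlap from immature OSN-like cells (118 ± 3.7 CPM) to mature OSN-like cells (99.7 ± 5.1 CPM), fibroblast-like cells (68.8 ± 24.8 CPM) and globose basal-like cells (27.1 ± 4.7 CPM; SD, n = 4). The unnamed cluster 13, with a median of 1374 molecules per cell, had Robo2 at 123 ± 18.5 CPM and overlapped the immature OSN-like cells. Sema3f, the ligand of Nrp2, was highest outside the neuronal lineage, in horizontal basal-like cells, the quiescent stem cells of the epithelium, at 77.0, 80.02, 98.6 and 79.6 CPM. Fibroblast-like cells at 71.0 ± 3.4 CPM were below all of these, and microvillar ionocyte-like cells at 69.1 ± 17.8 CPM overlapped them. Respiratory secretory-like cells had 55.9 ± 5.3 CPM (SD, n = 4). Sustentacular-like cells at 25.8 ± 1.1 CPM and immature OSN-like cells at 28.0 ± 1.6 CPM overlapped, and mature OSN-like cells had 13.8 ± 1.8 CPM. Horizontal basal-like cells, highest for this ligand, had its receptor Nrp2 at 3.35 ± 1.2 CPM (SD, n = 4), and at 16.6 ± 9.9 CPM with doublets kept.

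Slit1 was high in neurons and low in the other named classes. Mature OSN-like cells had 43.4 ± 1.7 CPM and immature OSN-like cells 42.9 ± 1.7 CPM, with overlapping libraries, and the next named class, sustentacular-like cells, had 5.78 ± 0.76 CPM (SD, n = 4). The unnamed cluster 13 was above these at 95.9 ± 13.2 CPM. Of the 599 Slit1 molecules of sustentacular-like cells, 486 came from their deep cluster with Omp at 2416 CPM. Their other clusters had Slit1 between 0.72 and 1.78 CPM. Immediate neuronal precursor-like cells, the highest class for Nrp2 and Robo2, had 4.3, 3.5, 1.7 and 3.5 CPM of Slit1.

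**Figure D2:**
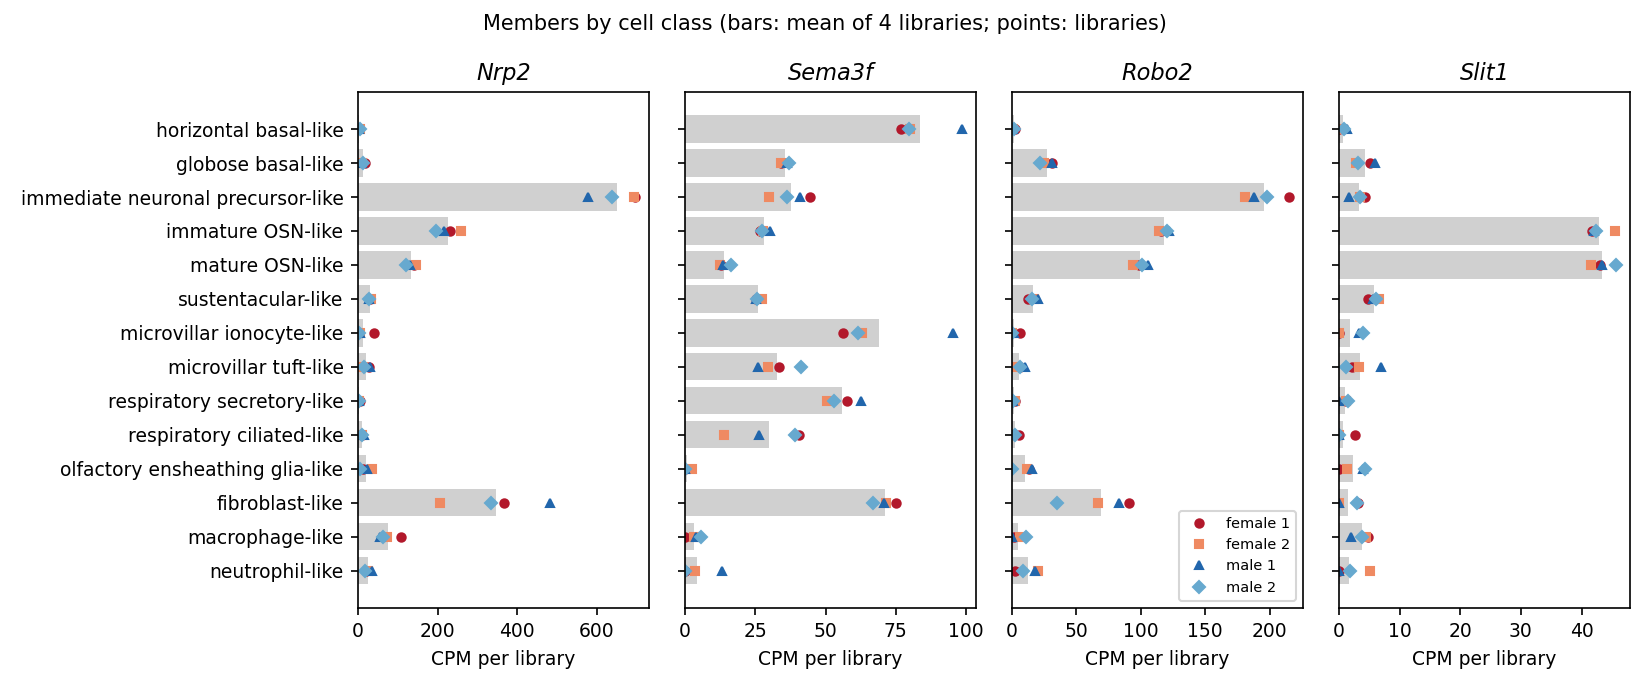
Level of each member (x axis, CPM from 0) in the 14 named cell classes (y axis), with a bar at the mean of the 4 libraries and 1 point per library. Nrp2 and Robo2 are longest in immediate neuronal precursor-like cells, Sema3f in horizontal basal-like cells, and Slit1 in the immature and mature OSN-like cells.

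Within the neuronal lineage, the mean level of Nrp2 was highest in a precursor cluster, in which Slit1 was close to absent, but a small immature cluster overlapped it. Nrp2 was at 12.1 ± 3.6 CPM in the globose basal-like cluster, the proliferating progenitors. It was at 325 ± 39.9 CPM in the precursor cluster led by Neurod1 and Neurog1 and at 853 ± 86.8 CPM in the precursor cluster led by Tex15 and Crabp1 (SD, n = 4). It was then at 265 ± 25.2 CPM in the immature cluster led by Gap43 and at 174 ± 16.8 CPM in the other large immature cluster. Over the 4 libraries these 5 clusters did not overlap, except the Neurod1-led with the Gap43-led cluster. Slit1 had 1.46 ± 2.0 and 4.37 ± 1.3 CPM in the precursor clusters and 38.2 ± 3.0 CPM in the Gap43-led cluster, while Robo2 had 164 ± 7.9, 215 ± 24.1 and 118 ± 7.9 CPM in the same clusters (SD, n = 4). The third immature cluster, of 418 shallow barcodes with a median of 3150 molecules, went against a fall from precursor to immature cells. It had Nrp2 at 703 ± 315 CPM, with libraries from 386 to 1120 CPM, the highest of them above every library of the precursor clusters. Its Robo2 at 336 ± 58.2 CPM and Slit1 at 131 ± 22.3 CPM (SD, n = 4) were the highest means of all clusters. Among mature OSN-like clusters, the one led by Nqo1 had the lowest Nrp2, at 25.4 ± 5.2 CPM, and Robo2 at 143 ± 6.6 CPM. A mature cluster of 4028 shallow barcodes, with a median of 3146 molecules, had Nrp2 at 301 ± 26.0 CPM, Robo2 at 232 ± 19.9 CPM and Slit1 at 93.3 ± 5.0 CPM (SD, n = 4), above every other mature OSN-like cluster in the mean of the libraries. Without barcodes under 4000 molecules, the difference of Nrp2 between the Omp and Gap43 gates was -0.93 on the log2 scale (edgeR adjusted p = 1.2e-07).

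The share of barcodes with at least 1 molecule, which also depends on depth and on free RNA in the droplets, was taken beside the levels. Nrp2 was found in 69.6% ± 3.5 of Gap43 gate barcodes (SD, n = 4; median depth 10399 molecules) and in 45.8% of Omp gate barcodes (7619 molecules). It was found in 2.6% of horizontal basal-like cells (7939.5 molecules) and in 15.7% of sustentacular-like cells, the deepest of the sets taken here at 14279 molecules. Most Nrp2, Robo2 and Slit1 molecules of sustentacular-like cells came from their deep cluster with Omp. With each barcode thinned to 2000 molecules the shares were 35.6% in the Gap43 gate, 20.8% in the Omp gate, 3.74% in sustentacular-like and 0.85% in horizontal basal-like cells. Robo2 went from 61.6% to 41.0% between the Gap43 and Omp gates (23.4% to 17.7% thinned), against 12.8% in sustentacular-like cells (2.17% thinned). Slit1 had 26.6% and 24.6%, but 5.41% and 8.32% once thinned, against 0.67% in sustentacular-like cells. Sema3f had 31.3% and 10.7% (7.56% and 2.95% thinned) and was found in 44.4% of horizontal basal-like cells (16.1% thinned) and in 0.45% of ensheathing glia-like cells. Robo2 and Slit1 were found in 0.98% and 0.52% of horizontal basal-like cells, the lowest of the sets taken here. Shallower sets were higher, at 1.52% and 1.99% in macrophage-like cells (4618 molecules) and 5.18% and 1.40% in ensheathing glia-like cells (4795 molecules). How much of these shares came from free RNA was not tested.

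The next comparison asked whether the members differ with the odorant receptor of a mature neuron. Barcodes of the Omp gate or double gate were assigned to a receptor where its count was 3 or more and made up 80% of all odorant receptor molecules. There were 66 receptors with 10 or more such barcodes in every library, 5923 barcodes in all, and each library gave 1 sum per receptor of 10 to 83 barcodes (median 19). Nrp2 differed across receptors with F = 21.4 (edgeR adjusted p = 9.6e-65), Robo2 with F = 18.5 (3.2e-64), Slit1 with F = 4.56 (2.4e-16) and Sema3f with F = 2.02 (1.8e-04). Of the 9949 genes tested 38.3% passed. With a stricter receptor assignment the call of Sema3f was lost (F = 1.53, adjusted p = 0.0893).

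Nrp2 was at 37.4 CPM in the lowest receptor, at 181 in the median one and at 584 in the highest, and the median SD over the 4 libraries of a receptor was 29.4 CPM. It was highest with Olfr281 (chromosome 15, 98452588 to 98460395), at 496, 552, 675 and 615 CPM over 53 barcodes. Olfr330 on chromosome 11 followed at 418 ± 69.2 CPM and Olfr727 on chromosome 14 at 344 ± 49.6 CPM (SD, n = 4). The lowest level was with Olfr55 (chromosome 17, 33168447 to 33180753), at 20.8, 47.5, 36.8 and 44.5 CPM over 101 barcodes. Every library of Olfr281 was above every library of these other receptors except for the highest of Olfr330. Olfr1271 on chromosome 2 had 64.1 ± 14.4 CPM and Olfr455 on chromosome 6 had 69.6 ± 11.9 CPM (SD, n = 4), and their ranges overlapped.

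Robo2 ranged from 1.77 over 40.1 to 186 CPM (lowest, median and highest receptor), with a median SD over libraries of 17.1 CPM. It was highest with Olfr1271 (chromosome 2, 90260546 to 90271032), at 304, 173, 156 and 113 CPM, where female 1 stood above the other libraries. Olfr1197, also on chromosome 2, had 150 ± 18.1 CPM and Olfr281 had 129 ± 44.4 CPM (SD, n = 4). It was close to absent with Olfr743, at 1 molecule over 73 barcodes, and with Olfr741 (chromosome 14, 50472738 to 50488338), at 3 molecules over 131 barcodes, and Olfr536 on chromosome 7 had 11 molecules over 306 barcodes. Olfr1271 was thus the highest for Robo2 and the next to lowest for Nrp2, while Olfr741 was the next to lowest for Robo2 and ranked 5 of 66 for Nrp2 at 319 CPM. Olfr281 was high for both receptors of guidance cues, ranking 1 of 66 for Nrp2 and 3 of 66 for Robo2.

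Slit1 ranged from 18.5 over 47.9 to 103 CPM, with a median SD of 15.9 CPM. Its highest levels were with Olfr1507 (103 ± 29.9 CPM), Olfr727 (98.1 ± 30.7 CPM) and Olfr741 (81.5 ± 23.2 CPM; SD, n = 4), all on chromosome 14. Its lowest were with Olfr775 (18.5 ± 11.5 CPM), Olfr1271 (19.7 ± 6.9 CPM) and Olfr1423 (22.9 ± 10.1 CPM; SD, n = 4). The receptors at these ends were the same for Slit1 and Nrp2 in Olfr727, which is among the highest of both, and in Olfr1271, which is among the lowest of both. Sema3f ranged from 0 over 11.8 to 35.6 CPM with a median SD of 6.6 CPM, and its highest receptor, Olfr279, held 15 molecules over 48 barcodes. No Sema3f molecule was counted with Olfr211 (79 barcodes), Olfr711 (55) and Olfr1415 (55), so that its order of receptors rests on few molecules.

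Levels from females were set against levels from males to keep sampling noise of 1 library out of a correlation. Across the 66 receptors, Pearson's r between the sexes was 0.91 for Nrp2 and 0.81 for Robo2, and 0.42 for both Slit1 and Sema3f. Between members the mean of both cross-sex values was 0.40 for Nrp2 with Slit1, -0.35 for Robo2 with Slit1 and -0.26 for Nrp2 with Robo2, and 0.11 for Nrp2 with Sema3f. These describe 66 receptors whose sums come from the same 4 libraries. With the 160 receptors that had 5 or more barcodes in every library, Nrp2 with Robo2 was at -0.50, Nrp2 with Slit1 at 0.51, and Nrp2 with Sema3f turned to -0.19. Without the 2 farthest of the 66 receptors, Nrp2 with Robo2 was at -0.15 and Nrp2 with Slit1 at 0.23. The ventral references, the cell adhesion gene Ncam2 and the nuclear factor I genes Nfia, Nfib and Nfix, did not share 1 direction with any member. Nrp2 was correlated with Nfia at 0.53 and Nfib at 0.30, but with Ncam2 at -0.09 and Nfix at -0.12. Robo2 was correlated with Ncam2 at 0.37, but with Nfia at -0.20, Nfib at -0.14 and Nfix at -0.08. Slit1 was correlated with Ncam2 at -0.33, but with Nfia at 0.16, Nfib at 0.15 and Nfix at 0.06. For Sema3f the 4 values lay between -0.14 and 0.09.

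**Figure D3:**
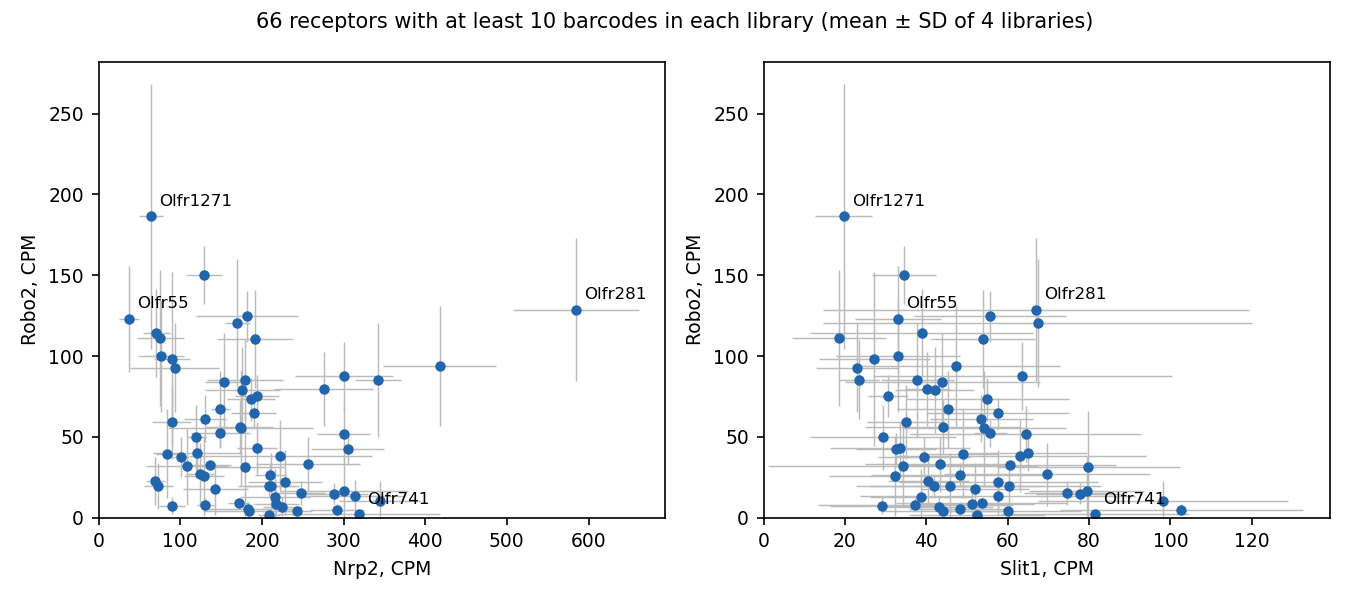
Nrp2 (x axis) against Robo2 (y axis), both in CPM, for the 66 receptors at the left, and Slit1 against Robo2 at the right, 1 point per receptor at the mean of the 4 libraries with lines of 1 SD. Points with Robo2 near 0 reach to over 300 CPM of Nrp2 on the x axis, Olfr1271 is at the top left of both panels with 186 CPM of Robo2, and Olfr281 is alone at the right with 584 CPM of Nrp2.

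The genes whose pattern over the 66 receptors was most like each member were taken from 2842 genes by the same cross-sex r. For Robo2 they were Rab3b, a vesicle GTPase (r = 0.75), the peroxisomal transporter Abcd2 (0.72), the actin-binding Tmsb4x (0.67), the plexin Plxna1 (0.67) and Bcl7a (0.65). The most opposite to Robo2 were Cidea (-0.75), the kinase Akt2 (-0.69), Ubl3 (-0.68), Brinp2 (-0.68) and the phosphodiesterase Pde7b (-0.67). For Nrp2 the most alike were Csrnp3 (0.60), Cyb5r1 (0.60), the teneurins Tenm4 (0.59) and Tenm2 (0.57), which are adhesion molecules of neurons, and Armh4 (0.56). The most opposite were Prxl2a (-0.59), the kinase Camk1 (-0.55), the mitochondrial ADP/ATP carrier Slc25a5 (-0.49), the neuropeptide gene Cartpt (-0.49) and Rrp1 (-0.48). For Slit1 the highest were Tmbim6 (0.54) and Cyb5r1 (0.53), which was also among those of Nrp2, and the lowest was Ell2 (-0.51). For Sema3f the highest was the peroxiredoxin Prdx1 (0.49), and Sema3e was among the lowest at -0.46. Of the partner lists, 8 of 9 semaphorin and plexin genes, 9 of 15 Slit and Robo genes and 8 of 15 collapse genes differed across receptors, beside 38.3% of all genes, with Nrp1 at F = 30.1, Plxna1 at 24.2 and Nell2, a Robo ligand, at 21.1.

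Nqo1 could not divide the 66 receptors into dorsal and ventral ones. Their Nqo1 levels were between 0 and 42.3 CPM, against 284 ± 54.9 CPM (SD, n = 4) in the whole Omp gate, so all of the most frequent receptors were of the Nqo1-poor kind. With the 66 split at the middle between the 10th and 90th percentile of their log2 Nqo1 level, only Robo2 passed the test, at a log2 difference of 0.42 (SE 0.06, edgeR adjusted p = 4.1e-04) beside 7.82% of all genes, and it was lost under 5 alternatives. In the Gap43 gate no member passed in this split, beside 0.0894% of all genes. The split was therefore repeated, after the data had been seen, over the 514 receptors with 10 or more barcodes over the 4 libraries together, where the same rule set the limit at 124 CPM of Nqo1. Of these, 138 receptors with 2338 barcodes were Nqo1-high and 376 with 13296 barcodes were Nqo1-low. Of 53 class I receptors 50 were high, together with 88 class II receptors. A class taken from the females alone was the same as the class from the 4 libraries together for 503 of the 514 receptors, and from the males alone for 508. The class from the 4 libraries holds the same females and males, so part of this agreement was given in advance. At the limit, Olfr433 with 107 CPM of Nqo1 was the highest of the low receptors and had Nrp2 at 10.7 and Robo2 at 42.8 CPM, and Olfr1231 with 118 CPM was the lowest of the high ones and had Nrp2 at 12.4 and Robo2 at 149 CPM; the limit was applied to levels with a prior count of 2.

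Nrp2 and Robo2 were divided by Nqo1 in opposite directions, and each ligand went against its receptor. Nrp2 was at 169, 171, 152 and 149 CPM in Nqo1-low neurons (female 1, female 2, male 1, male 2) and at 23.5, 28.1, 24.2 and 19.0 CPM in Nqo1-high neurons. The ranges were far apart, and the log2 difference of Nqo1-high from Nqo1-low neurons was -2.77 (SE 0.06, edgeR adjusted p = 3.1e-13), 6.82-fold. Robo2 was at 73.0, 65.3, 74.0 and 66.6 CPM in Nqo1-low neurons and at 203, 174, 219 and 178 CPM in Nqo1-high neurons. It was 1.47 higher with high Nqo1 (SE 0.04, edgeR adjusted p = 1.6e-12), 2.77-fold, and again no library overlapped. All 4 members passed this test, and so did 35.3% of 12364 genes.

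Slit1, the Robo ligand, was at 46.5, 42.7, 44.9 and 48.3 CPM in Nqo1-low neurons and at 25.8, 19.4, 17.9 and 25.3 CPM in Nqo1-high neurons. The log2 difference was -1.04 (SE 0.08, edgeR adjusted p = 2.3e-07), 2.06-fold, the direction of Nrp2. Sema3f, the Nrp2 ligand, was at 12.9, 13.1, 13.5 and 14.3 CPM in Nqo1-low and at 19.6, 19.1, 21.4 and 26.2 CPM in Nqo1-high neurons. It was 0.69 higher (SE 0.10, edgeR adjusted p = 6.6e-05), 1.61-fold, the direction of Robo2. The 7 sustentacular markers summed to 2005 to 3936 CPM over the libraries of Nqo1-low neurons. In Nqo1-high neurons their sum was 4531 to 8823 CPM. The mature OSN markers went the other way, also without overlap. Their sums were between 25710 and 27260 CPM in Nqo1-low neurons and between 20830 and 23050 CPM in Nqo1-high ones. The part of the mature OSN markers in the result was not tested. Sustentacular-like cells had 28.9 CPM of Nrp2 and 16.3 CPM of Robo2. Their deep cluster with Omp held 2557 of their 2991 Nrp2 molecules and 1510 of their 1691 Robo2 molecules. Their other clusters had means of at most 7.23 CPM of Nrp2 and 2.89 CPM of Robo2. Sema3f was at 25.8 CPM in sustentacular-like cells, above its means of 13.4 CPM in Nqo1-low and 21.6 CPM in Nqo1-high neurons. With barcodes of the named OSN clusters only, the log2 differences were as large, at -2.79 for Nrp2, 1.56 for Robo2, -0.98 for Slit1 and 0.76 for Sema3f (edgeR adjusted p = 9.2e-24, 4.0e-22, 1.1e-10 and 9.2e-07).

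**Figure D4:**
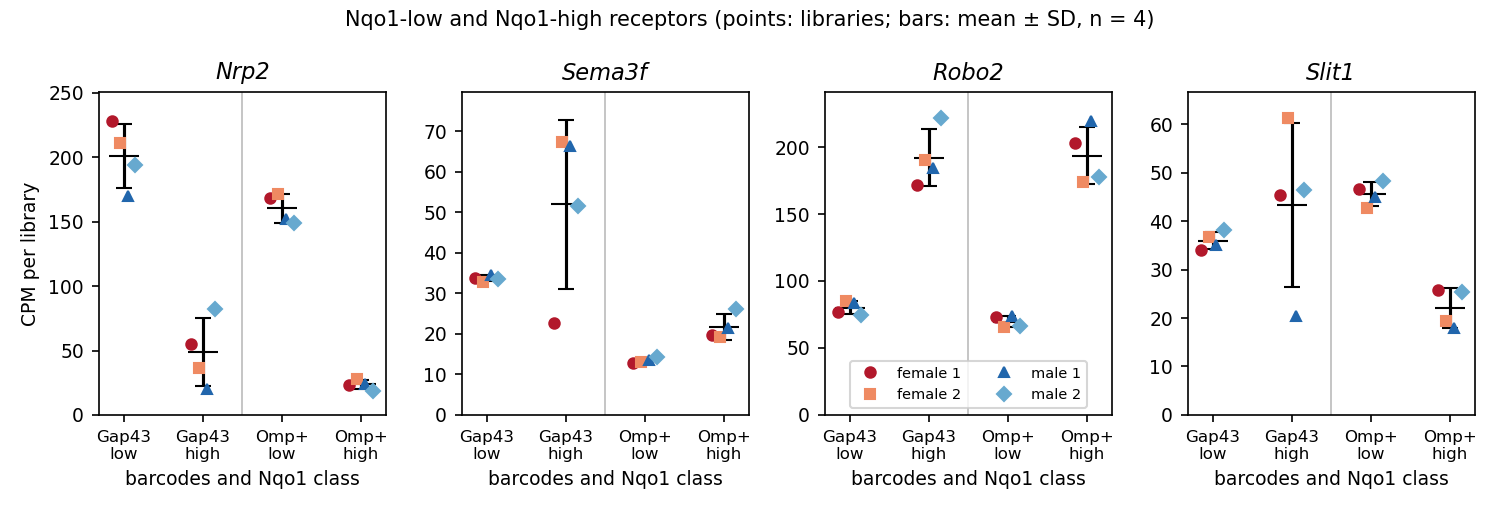
Level of each member in CPM (y axis, from 0) in Nqo1-low and Nqo1-high neurons of the Gap43 gate and of Omp-positive barcodes (x axis), 1 point per library, with the mean and SD of the 4 libraries. Nrp2 is lower and Robo2 higher with high Nqo1 class at both stages, while Slit1 is lower in Omp-positive neurons, at 22.1 against 45.6 CPM, and overlaps in the Gap43 gate.

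The division also held over single receptors as a description. The median Nrp2 level was 8.16 CPM over the 138 Nqo1-high receptors and 106 CPM over the 376 Nqo1-low ones, and 55 of the high and 5 of the low receptors had no Nrp2 molecule. Of the 138 high receptors 134 were below the median of the low receptors for Nrp2, 125 were above it for Robo2, 117 were below it for Slit1 and 89 were above it for Sema3f. Spearman's rho with Nqo1 over the 514 receptors was -0.60 for Nrp2, 0.52 for Robo2, -0.42 for Slit1 and 0.19 for Sema3f, over receptors that share libraries and differ in depth. Within the 376 Nqo1-low receptors alone Nrp2 had a rho of -0.34 with Robo2 and 0.45 with Slit1, while within the high ones Nrp2 with Robo2 was at 0.09. Some receptors went the other way. Olfr972, Nqo1-high, had Nrp2 at 178 CPM (41 molecules over 31 barcodes), and Olfr884 and Olfr957 had 138 and 127 CPM. Olfr129, Nqo1-low, had no Nrp2 molecule over 29 barcodes, which allows up to 14.4 CPM, and Robo2 at 182 CPM.

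**Figure D5:**
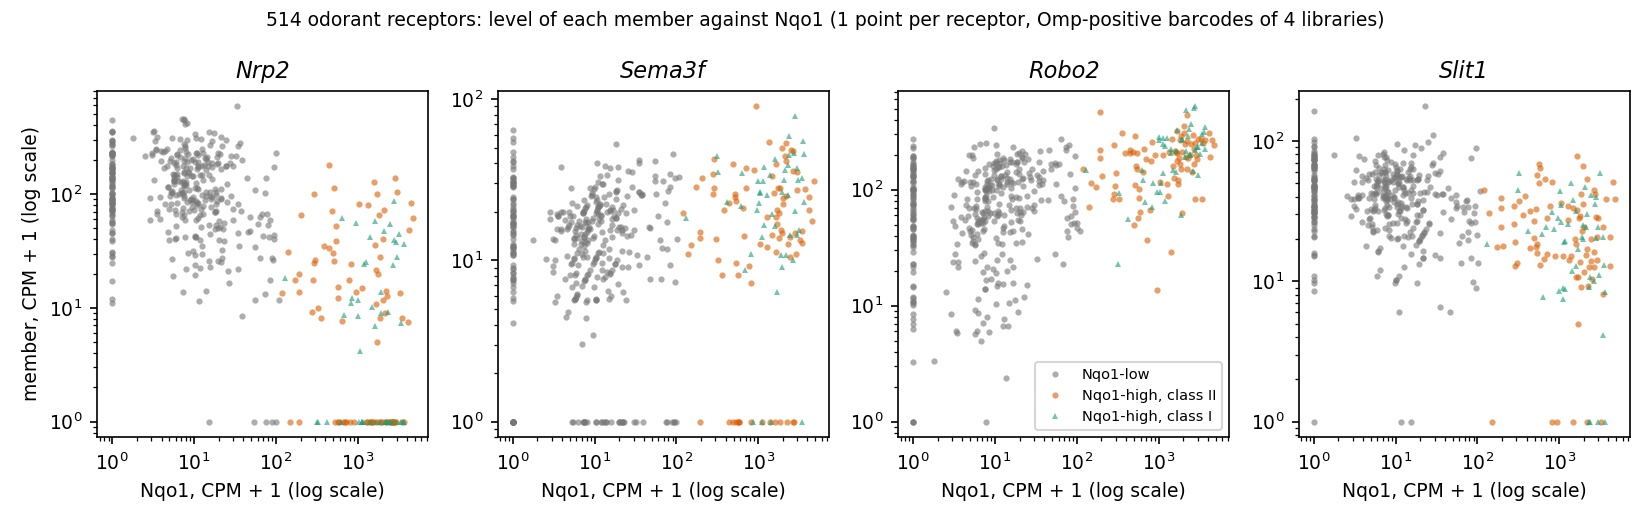
Level of each member (y axis) against Nqo1 (x axis), both as CPM + 1 on log scales, for the 514 receptors, 1 point per receptor summed over the 4 libraries. Nqo1-high receptors, class I as triangles, lie lower for Nrp2 and Slit1 and higher for Robo2, and many of them are at 0 molecules for Nrp2, on the line at 1.

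Other genes of the pathways were divided by Nqo1 as well. Of the semaphorin and plexin list 9 of 12 passed, beside 35.3% of all genes. In Nqo1-high neurons 3 were higher and 6 lower, with a median log2 difference of -0.58 against 0.00 over all genes. The log2 difference was -3.66 for Plxnb3, -1.16 for Sema3e, -0.88 for Nrp1 and -0.67 for Plxnd1, and Sema3a was higher by 1.29. Of the Slit and Robo list 9 of 16 passed, 1 higher and 8 lower, with a median of -0.13. Nell2 was at -4.04, Slit2 at -0.65 and Robo1, another Slit receptor, at -0.24, the reverse of Robo2. Srgap3, a GTPase regulator bound by Robo receptors, was the gene that was higher, by 1.16. The collapse signalling list had no common direction, with 9 of 17 passed, 4 higher and 5 lower, and a median of -0.005. Of the zone list 5 of 6 passed, with Acsm4, a dorsal marker, at 5.07 and Ncam2, Nfix, Nfia and Nfib between -2.33 and -1.88.

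Class I receptors, the older receptor class whose genes lie in 1 cluster on chromosome 7, gave the same division without use of Nqo1. Of these 110 receptors 1291 barcodes were found, against 16459 barcodes of 845 class II receptors. Nrp2 was at 29.2, 35.7, 24.0 and 18.9 CPM in class I neurons and at 151, 150, 135 and 127 CPM in class II neurons, a log2 difference of -2.40 (SE 0.08, edgeR adjusted p = 1.0e-12). Robo2 was at 197, 190, 223 and 181 CPM against 87.3, 79.8, 89.8 and 84.4 CPM, 1.22 higher (SE 0.05, edgeR adjusted p = 3.3e-12). The 4 libraries of the classes stood apart for both genes. Slit1 was lower, at 19.8 ± 4.2 against 42.3 ± 2.2 CPM (log2 difference -1.05, SE 0.10, edgeR adjusted p = 6.6e-07). Sema3f was higher, at 22.1 ± 4.9 against 14.7 ± 0.78 CPM (SD, n = 4; log2 difference 0.63, SE 0.12, edgeR adjusted p = 7.9e-04). Beside these 4 members, 30.1% of 12470 genes passed. With class II receptors only, the Nqo1 division of the 514 receptors kept its direction and call for all 4 members, with log2 differences of -2.50 for Nrp2, 1.37 for Robo2, 0.58 for Sema3f and -0.94 for Slit1.

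The division by Nqo1 class of the receptor was then read in immature neurons. In the Gap43 gate 74 barcodes carried 51 Nqo1-high receptors, 14 to 26 per library, and 976 barcodes carried 270 Nqo1-low ones. Nrp2 was at 228, 211, 170 and 194 CPM with low and at 55.1, 36.8, 20.5 and 82.5 CPM with high Nqo1 class, a log2 difference of -2.03 (SE 0.22, edgeR adjusted p = 3.7e-05). Robo2 was at 80.2 ± 4.9 CPM (SD, n = 4) with low class and at 172, 190, 184 and 222 CPM with high class, 1.27 higher (SE 0.15, edgeR adjusted p = 8.2e-05). Both were divided at this stage without overlap of the libraries, where 1.03% of 10199 genes passed. The sustentacular markers summed to 374 to 13820 CPM over the libraries of the high class and to 4713 to 7977 CPM in the low class. Their part in these levels was not tested. The ligands did not pass. Slit1 was at 36.0 ± 1.8 CPM with low class and at 45.4, 61.3, 20.5 and 46.4 CPM with high class, a log2 difference of 0.27 (95% interval -0.30 to 0.84; edgeR adjusted p = 0.863). Sema3f was at 33.8, 32.9, 34.7 and 33.6 CPM with low class and at 22.7, 67.4, 66.5 and 51.6 CPM with high class, where female 1 was below the low class and the others above it, a log2 difference of 0.53 (95% interval -0.06 to 1.13; edgeR adjusted p = 0.631). None of the 41 tested genes of the 3 partner lists passed (0 of 10, 0 of 16 and 0 of 15), while all 5 tested genes of the zone list did.

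The change of that division with stage was tested for each member. Here the mature side was the Omp gate without the double gate, with 2292 Nqo1-high and 12644 Nqo1-low barcodes. For Slit1 the Nqo1 difference in Omp gate neurons less that in Gap43 gate neurons was -1.31 on the log2 scale (SE 0.29, edgeR adjusted p = 0.0339), beside 0.96% of 11771 genes. The call was lost without female 1 (adjusted p = 0.216), without female 2 (0.131) and without male 2 (0.178). For Nrp2 the interaction was -0.81 (SE 0.28, edgeR adjusted p = 0.224), for Robo2 0.26 (SE 0.14, 0.479) and for Sema3f 0.24 (SE 0.26, 0.775). None of these passed. The comparison of the whole gates did not match receptors. It set a Gap43 gate with 74 Nqo1-high and 976 Nqo1-low barcodes against Omp-positive ones with 2338 and 13296. With low class, Nrp2 was at 201 CPM in the Gap43 gate and at 160 CPM in Omp-positive barcodes. Slit1 was at 36.0 and 45.6 CPM with low class, and at 43.4 and 22.1 CPM with high class. The part of this mix in the gate differences was not tested.

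The last comparison set males against females. In the Omp gate Nrp2 was lower in both male libraries, at 123 and 113 CPM, than in both female ones, at 142 and 141 CPM. Both males were also below both females in the Gap43 and double gates. The test did not pass after adjustment, with a log2 difference of males from females of -0.22 in the Omp gate (95% interval -0.38 to -0.07, edgeR adjusted p = 0.859) and -0.22 in the Gap43 gate (edgeR adjusted p = 0.519). The background was 0.0069% of 14493 genes in the Omp gate and 0.184% of 12496 in the Gap43 gate. Sema3f, Robo2 and Slit1 had log2 differences between 0.08 and 0.17 in the Omp gate, with adjusted p = 1 each. No member passed in immediate neuronal precursor-like, immature OSN-like, mature OSN-like or sustentacular-like cells, beside 0.717%, 0.222%, 0.0521% and 0.081% of all genes. None passed the test of a sex difference that changes with stage (0% of all genes) or with Nqo1 class (0.218%). None of the genes of the partner lists passed in either gate.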

How the data were processed

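The 4 libraries were made with droplet capture of 5′ ends, and the authors deposited 1 matrix of raw UMI counts per library, whole numbers per gene and barcode with no normalization, per the file headers. Each UMI, a molecular identifier, stands for 1 captured molecule. The file headers name Cell Ranger 6.0.2, while the submitters' processing notes name Cell Ranger 5.0.1 and the build mm10. Positions are those of GENCODE M21 on GRCm38, in which 22285 of the 22399 gene IDs were found.

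Barcodes with under 500 genes or over 10% mitochondrial counts were left out. Doublets were scored against simulated ones, and 0.8% per 1000 barcodes were removed. Cells were clustered (2000 variable genes without odorant receptors, the members and the gene lists, 30 components, 15 neighbours, Leiden, resolution 1), and the 29 clusters were named from marker lists. Counts were summed per library and group. Tests used edgeR 4.0.16 in R 4.3.3 (quasi-likelihood, TMM scaling, filterByExpr, library as block except between sexes), adjusted by Benjamini and Hochberg over all genes tested at 0.05. Standard errors were derived from the log2 difference and the F value of that test. The 95% intervals of log2 differences are approximate. They used these errors and degrees of freedom recovered from the p-values, as the median over the members. Floors are 3 counts, for counting error only. Odorant receptor genes were left out of the tests across receptors. DESeq2 1.42.0, other filters, scalings, gates and receptor assignments, and each left-out library were alternatives. The fits were tested on simulated counts.

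The 4 members and the lists were chosen with earlier results of these data known. The text names the members, the 5 genes of each list with the largest change past the threshold, the 5 genes most and least like a member, and the 3 receptors at each end. A few further list genes and receptors were named after their values were seen. The labels give the replicate numbers no meaning, so the sexes were not paired by them in the main fits. Deviations of libraries with the same number had a correlation of -0.05 in the Omp gate and 0.03 in the Gap43 gate. With so few libraries these values cannot decide whether the numbers pair the sexes.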

Additional observations from a re-analysis of the deposited data

Results flagged for a closer look

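Sema3f in the Omp gate had a library apart from the others. Male 2 was at 17.2 CPM, while the other libraries were at 14.6, 14.7 and 15.03 CPM. The gap to the nearest library was 0.835 of the whole range, above the 95% limit of Dixon's test for 4 values. Of 36 such groups of 4 libraries this was the only one, and chance gives about 1 in 20. Without male 2 Sema3f still fell from the Gap43 gate to the Omp gate, by 1.06 on the log2 scale (edgeR adjusted p = 1.9e-05).

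The Nqo1 difference of Slit1 changed with stage. The interaction was -1.31 on the log2 scale (edgeR adjusted p = 0.0339), and with 1 library left out it was between -1.43 and -1.15 with adjusted p between 0.0305 and 0.216. The high class of the Gap43 gate held 14 to 26 barcodes per library, and Slit1 ranged there from 20.5 CPM in male 1 to 61.3 CPM in female 2.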

How the results depend on the processing

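The directions and calls of Nrp2, Sema3f and Slit1 between the Omp and Gap43 gates, and of all 4 members in the Nqo1 split of the 514 receptors in Omp-positive barcodes and between class I and class II receptors, held under every alternative run for them. So did Nrp2 and Robo2 in the 514 split in the Gap43 gate, and Nrp2, Robo2 and Slit1 across receptors.

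Gates set in molecules per barcode turned the sign of Robo2 between the double and Gap43 gates (-0.021 on the log2 scale) and of Slit1 between the Omp and double gates (0.013), and took the call of Robo2 between the Omp and double gates (-0.14). Doubled gates took that of Nrp2 between the double and Gap43 gates (-0.0032) and of Slit1 between the Omp and double gates (-0.11). Robo2 between the double and Gap43 gates was also lost with unscaled totals (0.020), with no filter (0.12) and with doublets kept (0.017), and Slit1 between the Omp and double gates with no filter (-0.064), DESeq2 (-0.098) and named OSN clusters only (-0.12). With no filter Robo2 between the Omp and Gap43 gates was at -0.12. With a library left out these were 0.10 to 0.23, -0.16 to -0.091 and -0.16 to -0.13. The cause was not tested.

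In the Nqo1 split of the 66 receptors, the 887 genes called became 207 with DESeq2, 263 with the split from females compared in males, 99 the other way round, 80 with doublets kept, 121 with the Omp gate only, 126 with a stricter receptor assignment, 298 with outer tertiles, and 338 to 1229 with a library left out. Robo2 was then at 0.17 and 0.15 in the cross-sex splits, at 0.082 with doublets kept, 0.058 with the Omp gate only and 0.28 with outer tertiles, and Sema3f passed with 5 barcodes per library (0.41). In its Gap43 gate version 8 genes became 45 with no filter, 4 with DESeq2, 26 with named OSN clusters only and 5 to 16 with a library left out. For the split of the 514, 4366 genes became 2811 with DESeq2. In its Gap43 gate version 105 became 249 with no filter, 68 with DESeq2, 182 with named OSN clusters only and 42 to 130 with a library left out.

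Between sexes, the single gene called in the Omp gate (737 at an unadjusted p under 0.05) became 136 with DESeq2, 7 with doublets kept, 2 without shallow barcodes, 3 with gates in molecules and 0 to 5 with a library left out. The 23 of the Gap43 gate became 8 with no filter, 98 with DESeq2, 103 with doubled gates and 1 to 40 with a library left out. With the replicate block 1 and 83 genes were called, though the labels give the replicate numbers no meaning, and no member passed. The Slit1 interaction of stage and Nqo1 class was between -1.43 and -1.15 with a library left out, and the genes called there (113) between 33 and 81. For sex by stage 0 genes were called (666 at an unadjusted p under 0.05) and 0 to 14 with a library left out. For sex by Nqo1 class the 28 genes became 135 with no filter and 26 to 135 with a library left out. The F value of Sema3f across receptors was 1.53 with a stricter assignment. Of estimates without a call, 13 results changed sign under 30 settings, none beyond -0.23 or 0.11. With doublets kept, some low levels in other cell classes were higher: Nrp2 went from 3.35 to 16.6 CPM in horizontal basal-like and from 28.9 to 48.9 CPM in sustentacular-like cells, and Slit1 from 5.78 to 10.3 CPM in the latter. Low molecule counts limit Sema3f across receptors and the high class of the Gap43 gate.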

Other observations

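Neurons with a trace amine receptor (Taar), a small receptor family beside the odorant receptors, were found as 113 barcodes with 3 or more Taar molecules, 20 to 36 per library. Nrp2 was at 169 ± 62.0 CPM, Robo2 at 107 ± 36.3, Slit1 at 29.3 ± 11.9 and Sema3f at 14.8 ± 7.1 CPM (SD, n = 4). Nqo1 was at 200 ± 128 CPM in them. These barcodes also met the Omp limit, so they were part of the sums of the Omp and double gates. As a group they were not compared with other neurons.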
